A study of Mus musculus with 6 samples.

Results

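Messenger RNAs of 10 genes of the hypoxia and glucose response were followed in differentiating C2C12 cells in which an enhancer of *Myog* had been targeted. The 10 genes, taken by name from the 23231 genes with a count in any library, were the oxygen-regulated transcription factor gene *Hif1a*, its targets *Vegfa*, *Bnip3*, *Egln3*, *Ndrg1* and *Pdk1*, the glucose transporter genes *Slc2a1*, *Slc2a3* and *Slc2a4*, and the hexokinase gene *Hk2*. All 10 passed the low-count filter and were tested. C2C12 cells are mouse myoblasts that fuse into myotubes in low serum. Both groups received lentivirus (multiplicity of infection 100), were selected with puromycin (2 µg/ml), kept in 2% horse serum and sampled on day 5 of differentiation. The dCas9-KRAB group, the control, carried a nuclease-dead Cas9 fused to the KRAB repressor domain without an enhancer sgRNA, and the dCas9-KRAB-En5 group also carried a pair of sgRNAs against the enhancer Myog-En5. A human ubiquitin C promoter drove the fusion protein in both groups, so the controls were not untreated cells. Each group had 3 libraries of polyadenylated RNA, numbered 1 to 3, and nothing in the labels says that they were separate transductions, so the p-values measure only the spread between these libraries.

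In oxygen, prolyl hydroxylases encoded by the *Egln* genes mark the HIF1A protein for destruction through the VHL ubiquitin ligase. When oxygen is scarce the protein is stabilized, pairs with ARNT and binds hypoxia response elements, whose core is the motif ACGTG or GCGTG, at genes of angiogenesis, glycolysis, glucose uptake and mitophagy. HIF1A is controlled largely at the level of the protein, which was not measured here. In muscle cells, GLUT1 (*Slc2a1*) carries basal glucose uptake, and GLUT4 (*Slc2a4*), which appears as muscle cells mature, is moved to the surface by insulin and contraction.

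The counts per library summed to between 31831093 and 73988425, and the smallest total was that of dCas9-KRAB-En5 replicate 3. This library stood apart. It listed 13991 genes against 17084 to 19395 in the other 5, and 25.8% of its counts fell on ribosomal protein genes, against 10.8% to 19.4%. *Myog*, the gene whose enhancer was targeted, was at 1065, 1224 and 1118 TPM (a level per gene length, scaled to the same total in each library) in dCas9-KRAB and at 0.379, 0 and 0 TPM in dCas9-KRAB-En5. Here and below the values of a group are listed in the order of replicates 1, 2 and 3. All 8 myotube markers examined were lower in dCas9-KRAB-En5, with a summed level of 16548 to 19127 TPM in dCas9-KRAB and 14.9 to 22.9 TPM in dCas9-KRAB-En5, and *Myod1*, which also marks myoblasts, was at 33.8 to 110.5 TPM and 0 to 0.0761 TPM. The labels call the cells myoblasts, yet 14 macrophage markers summed to 6532 to 8610 TPM in dCas9-KRAB and 13581 to 21581 TPM in dCas9-KRAB-En5. Of the 12 tested, 3 were above every control in all dCas9-KRAB-En5 libraries and 1 was below, beside 7.76% and 19.7% of all tested genes. The median over the 14 markers overlapped between the groups, at 138.8, 362.6 and 297.3 TPM in dCas9-KRAB and 358.7, 426.6 and 180.2 TPM in dCas9-KRAB-En5. *Lyz2*, *Tyrobp* and *Csf1r* were among those detected in all 6 libraries, while *Mrc1* was at 0 in all 6 and *C1qa* at 0 in 4. Of the 12 macrophage markers tested, 1 was higher in dCas9-KRAB-En5 (*Adgre1*, with 17.7, 7.62 and 9.09 TPM against 135.2, 121.9 and 29.6 TPM, edgeR adjusted p = 0.00706, up to 0.0589 over the alternatives). For these marker lists, the shares over all tested genes were 1.52% called higher and 4.67% called lower. Of the other markers tested, 2 of 3 for myoblasts (*Myod1* and *Myf5*) and 1 of 4 for fibroblasts (*Col1a1*) were lower in dCas9-KRAB-En5. Of 5 adipocyte markers only *Fabp4* was tested, and it was higher in dCas9-KRAB-En5. *Adipoq* and *Lep* were at 0 in all 6 libraries, and *Plin1* and *Cfd* had counts in 1 library each, so *Fabp4* alone does not mark adipocytes. The 5 endothelial markers were at or near 0 in all libraries. The part of macrophage RNA, of library quality and of myotube loss in the differences below was not tested, and in bulk RNA fewer cells of a type and less RNA per cell cannot be told apart.

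The promoters of the genes were searched for the core motif of HIF binding, because most of the genes are known HIF targets. RefSeq windows of 300 bases around the annotated start (GRCm38.p6) were at hand for 7 of the 10 genes, 9 windows in all; *Ndrg1*, *Slc2a3* and *Slc2a4* had none. ACGTG on either strand lay in 19.6% of all 32851 windows, GCGTG in 32.4% and the E-box CANNTG, which overlaps ACGTG in the letters CACGTG, in 72.3%. The 3 stretches below were chosen to set a gene that fell (*Egln3*) beside *Bnip3*, with the most matches to the 2 core motifs together, and *Slc2a1*, the glucose transporter with the largest levels in dCas9-KRAB-En5. Capitals mark ACGTG or GCGTG on either strand, and each is written 5′ to 3′ in the direction of its gene.
Egln3, upstream of the start, minus strand, chr12:54203875-54204124: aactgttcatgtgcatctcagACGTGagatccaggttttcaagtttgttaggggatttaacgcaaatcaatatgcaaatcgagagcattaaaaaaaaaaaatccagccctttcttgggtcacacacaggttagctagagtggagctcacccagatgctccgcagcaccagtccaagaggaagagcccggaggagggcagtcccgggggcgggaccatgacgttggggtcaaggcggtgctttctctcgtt
Bnip3, upstream of the start, minus strand, chr7:138909520-138909756: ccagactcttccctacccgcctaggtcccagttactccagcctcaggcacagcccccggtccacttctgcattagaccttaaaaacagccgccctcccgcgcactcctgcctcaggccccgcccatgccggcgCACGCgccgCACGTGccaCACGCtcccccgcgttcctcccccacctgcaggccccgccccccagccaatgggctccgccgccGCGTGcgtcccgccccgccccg
Slc2a1, 30 bases at the start region, plus strand, chr4:119108697-119108726: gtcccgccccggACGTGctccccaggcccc
*Egln3* held 1 match to ACGTG and none to GCGTG, near the distal end of the window. *Bnip3* held 2 of ACGTG, which overlap as the 2 strands of the palindrome CACGTG, and 3 of GCGTG. The whole *Slc2a1* window held 1 of each. A match describes these letters only and is not evidence of binding.

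The rank of the genes by mean level was not the same in the groups. In dCas9-KRAB the highest mean level was that of *Slc2a1*, at 43.3 ± 26.2 TPM (SD, n = 3), followed by *Ndrg1* at 34.7 ± 12.4 TPM and *Egln3* at 28.6 ± 6.45 TPM, and the spreads of these 3 overlapped. In dCas9-KRAB-En5 *Ndrg1* at 409 ± 289 TPM and *Slc2a1* at 363 ± 274 TPM came first, overlapped each other, and stood above *Vegfa* at 126 ± 111 TPM in mean only, while *Egln3* dropped to 1.45 ± 0.431 TPM. *Slc2a4* was the lowest gene in both groups, at 0.783 ± 0.276 TPM and 0.0972 ± 0.124 TPM.

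**Figure D1:**
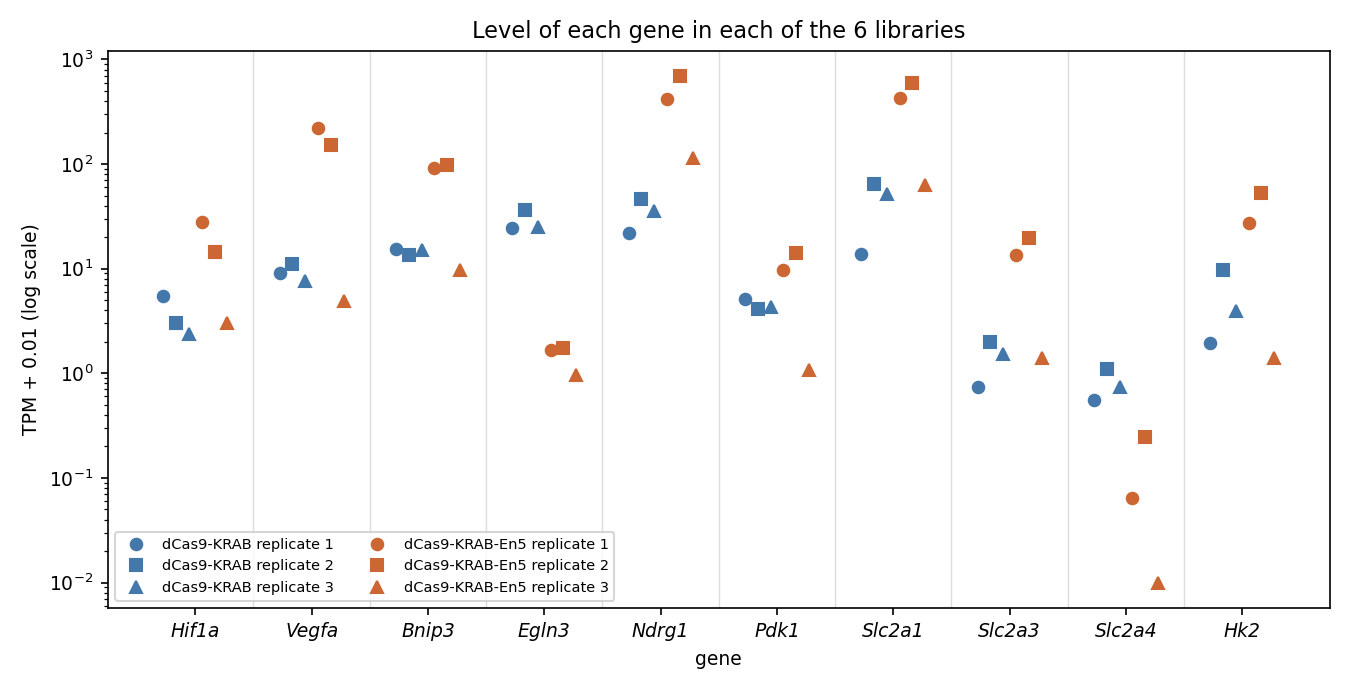
Level of each of the 10 genes (TPM + 0.01, log axis) in the 3 dCas9-KRAB libraries (blue) and the 3 dCas9-KRAB-En5 libraries (orange), with the replicate number as the symbol. For 8 genes dCas9-KRAB-En5 replicates 1 and 2 lie above the other 4 libraries, and *Egln3* and *Slc2a4* lie lower in all 3 dCas9-KRAB-En5 libraries.

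The study applied its cutoffs (adjusted p up to 0.01, log2 fold change 1 or more in size) to DESeq2, which is given below as an alternative. With the same cutoffs and edgeR's quasi-likelihood test, 1 of the 10 genes rose in dCas9-KRAB-En5 (*Ndrg1*), 1 fell (*Egln3*) and 8 did not pass. Over all 14378 genes tested, 1.52% were called higher and 4.67% lower. The median log2 fold change of the 10 genes was 1.82, beside 0.08 over all genes tested. Above 0 were 8 of the 10, beside 7522 of all 14378. In 8 of the 10, dCas9-KRAB-En5 replicates 1 and 2 were both above the other 4 libraries in TPM, a pattern that 44.6% of all tested genes had. In dCas9-KRAB-En5 replicate 3 only *Ndrg1* exceeded its highest dCas9-KRAB value, 1 of 10 genes or 10.0%, against 11.2% of all tested genes. The calls changed without that library and with the tool. Without dCas9-KRAB-En5 replicate 3, 7 genes were called higher (*Hif1a*, *Vegfa*, *Bnip3*, *Ndrg1*, *Slc2a1*, *Slc2a3* and *Hk2*) and *Egln3* lower, where 11.7% of all 15265 genes tested were called higher and 14% lower. With DESeq2 on all 6 libraries, 4 were called higher (*Vegfa*, *Ndrg1*, *Slc2a1* and *Slc2a3*) and 2 lower (*Egln3* and *Slc2a4*), where 5.88% of genes were called higher and 8.66% lower. When the replicate number was fitted as a block, 2 were called higher (*Ndrg1* and *Slc2a1*) and 1 lower (*Egln3*), where 3.94% and 6.79% of genes were called.

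**Figure D2:**
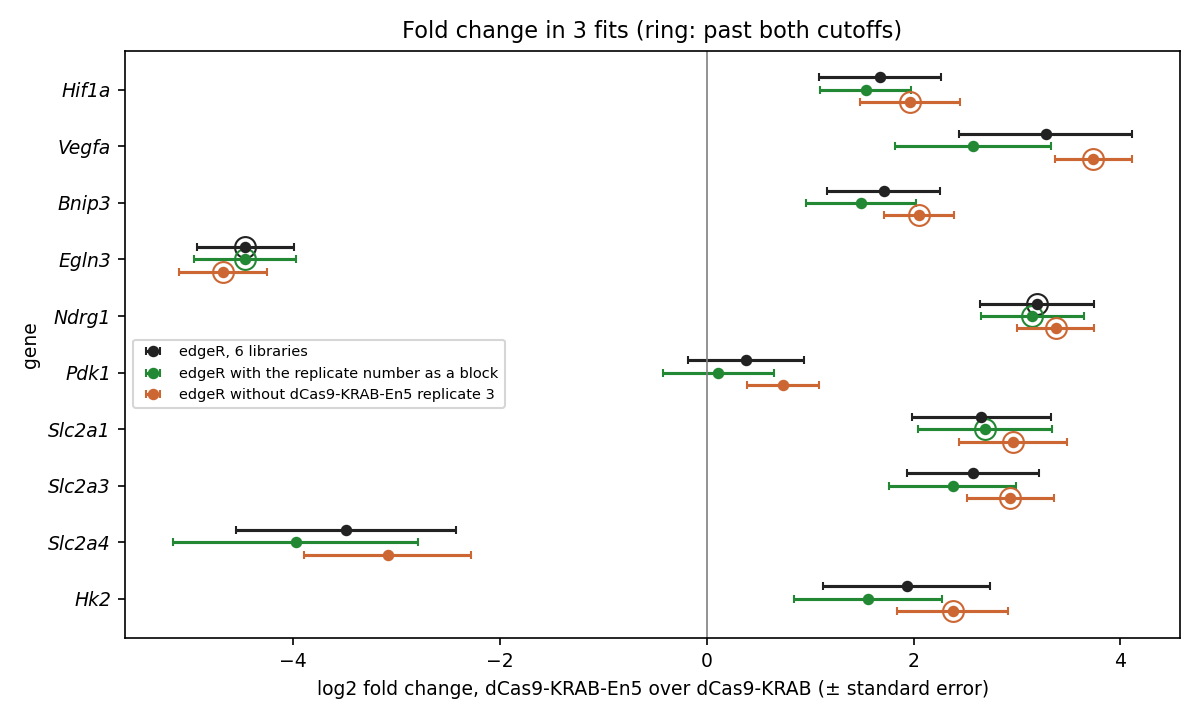
Log2 fold change of each gene with its standard error (dCas9-KRAB-En5 over dCas9-KRAB) in the edgeR fit of all 6 libraries (black), blocked on replicate number (green) and without dCas9-KRAB-En5 replicate 3 (orange), a ring marking values past both cutoffs. *Egln3* and *Ndrg1* are ringed in all 3 fits, and 7 genes are ringed above 0 in the last.

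*Hif1a* (chromosome 12, 73901375 to 73947530, plus strand) encodes the oxygen-regulated subunit of the factor. It was at 5.44, 2.99 and 2.36 TPM in dCas9-KRAB and at 28.1, 14.5 and 3.02 TPM in dCas9-KRAB-En5. Replicates 1 and 2 of dCas9-KRAB-En5 were above all controls, whereas replicate 3 lay among them. At 1.68 (SE 0.59), its log2 fold change did not pass (edgeR adjusted p = 0.0708, 0.00884 to 0.370 over the alternatives), and without replicate 3 it was 1.96 (edgeR adjusted p = 0.00884). The exons of *Hif1a* overlap those of Gm15283 on the opposite strand and Gm49321 on the same strand, and reads there cannot be assigned. Patterns over the 6 libraries were compared among 114 genes of the pathway lists, in centred log2 of TMM-normalized CPM + 0.5 (counts scaled by library size). Those closest to *Hif1a* were the apoptosis regulator *Bcl2*, *Mef2c* and *Mef2a*, with mean absolute differences of 0.168, 0.212 and 0.283 log2 units.

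Of 13 partners and regulators of HIF1A, 11 were tested, 1 rose and none fell, where 1.52% and 4.67% of all tested genes did, with a median log2 fold change of 0.20. Without dCas9-KRAB-En5 replicate 3, 3 were called higher (*Arnt*, *Egln1* and *Cited2*) and 3 lower (*Egln2*, *Elob* and *Rbx1*), beside 11.7% and 14% of all genes tested. The gene that rose with all 6 libraries was *Cited2*, a target of HIF that competes with it for the coactivators CBP and p300. It was at 42.7, 92.8 and 63.4 TPM in dCas9-KRAB and at 1026, 926.0 and 129.3 TPM in dCas9-KRAB-En5. The groups were without overlap, as were 7.76% of all tested genes in this direction. Its log2 fold change was 2.99 (SE 0.59, edgeR adjusted p = 0.00658), and the call was lost when any 1 library other than dCas9-KRAB-En5 replicate 3 was left out (adjusted p from 0.0103 to 0.0542) and with limma. *Epas1*, which encodes HIF2A, was at 0 in 5 libraries and at 0.00841 TPM in dCas9-KRAB-En5 replicate 1.

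*Egln3* (chromosome 12, 54178981 to 54203860, minus strand) encodes the prolyl hydroxylase PHD3, itself a HIF target that is abundant in muscle. It was at 24.5, 36.0 and 25.2 TPM in dCas9-KRAB and at 1.67, 1.73 and 0.952 TPM in dCas9-KRAB-En5, from 1769 to 3589 counts and from 58 to 94 counts. No dCas9-KRAB-En5 library reached any control, a pattern shared by 19.7% of all tested genes. It fell by 4.46 on the log2 scale (SE 0.47, edgeR adjusted p = 0.000117), a level 22.0-fold lower, and *Egln3* was called lower in every one of the alternatives tried, with an adjusted p of at most 0.00253. It thus fell while 8 of the 10 genes had a fold change above 0. Its promoter, printed above, holds the motif ACGTG as do those of *Bnip3*, *Slc2a1*, *Hk2* and *Hif1a* and 1 of the 2 windows of *Vegfa*.

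The make-up of the prolyl hydroxylase family differed between the groups. *Egln2*, which encodes PHD1 and was the most abundant of the 3 in dCas9-KRAB, was at 50.1, 105.7 and 82.2 TPM there and at 25.8, 38.8 and 40.5 TPM in dCas9-KRAB-En5. Like *Egln3* it was below every control in TPM, but on TMM-normalized CPM, which allow for the composition of each library, replicate 3 lay among the controls, and it was not called (log2 fold change -1.11, SE 0.54, edgeR adjusted p = 0.177, and -1.92, adjusted p = 0.00414 and called lower without replicate 3). *Egln3* held 31.4%, 23.5% and 22.1% of the family's summed TPM in dCas9-KRAB and 2.37%, 1.31% and 2.12% in dCas9-KRAB-En5. *Egln1*, which encodes PHD2, the main oxygen sensor of the family, held 4.40%, 7.69% and 6.09% in dCas9-KRAB and 61.0%, 69.2% and 7.69% in dCas9-KRAB-En5. These shares do not depend on library scaling, and the *Egln3* share was lower in all 3 dCas9-KRAB-En5 libraries, but the *Egln1* share was high in replicates 1 and 2 alone. The level of *Egln1* was 3.44, 11.8 and 6.97 TPM in dCas9-KRAB and 43.0, 91.2 and 3.45 TPM in dCas9-KRAB-En5 (log2 fold change 2.15, SE 0.72, edgeR adjusted p = 0.0623), and without replicate 3 it was called higher at 2.56 (edgeR adjusted p = 0.00232).

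**Figure D3:**
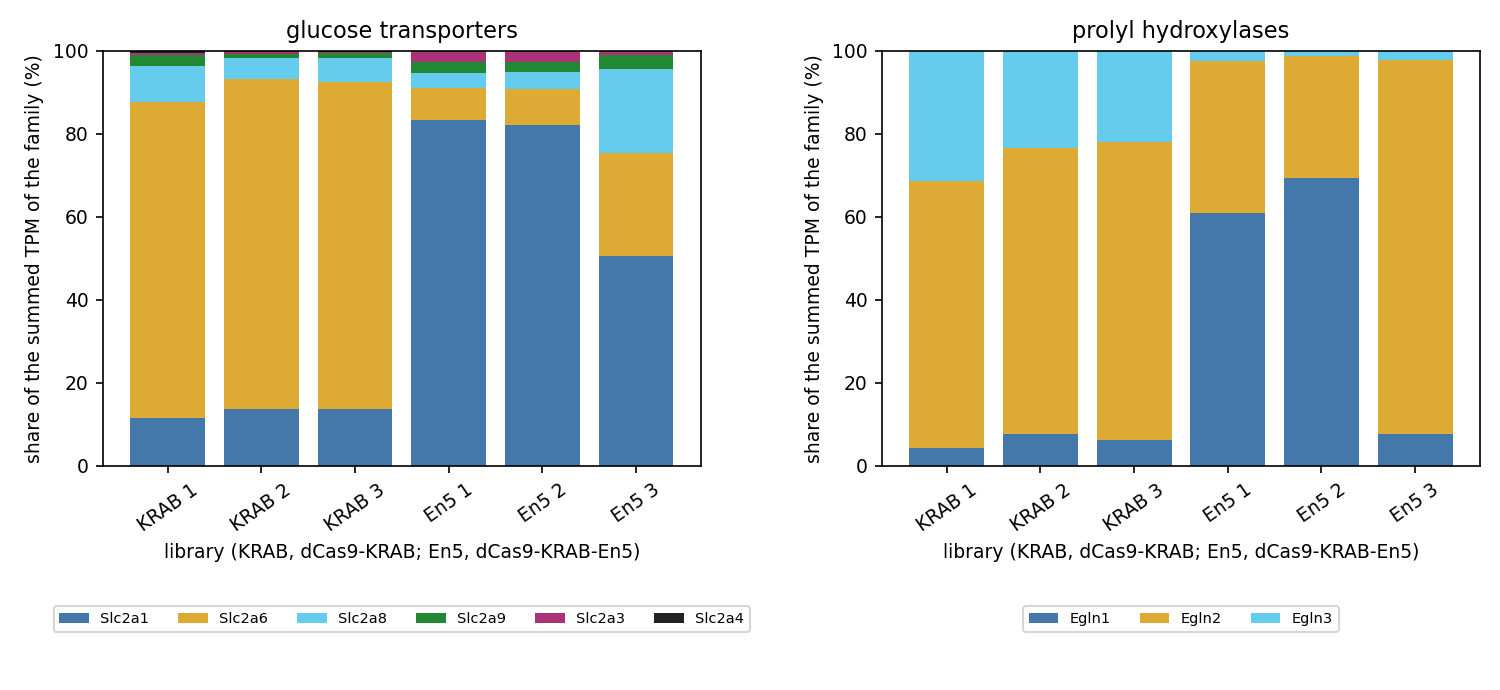
Share of the summed TPM of each gene family held by each of its genes in each library, for the glucose transporters (left; transporters at or near 0 are not drawn) and the prolyl hydroxylases (right). *Slc2a1* goes from 11.5% to 13.8% in dCas9-KRAB to 50.6% to 83.4% in dCas9-KRAB-En5, and *Egln3* from 22.1% to 31.4% to 1.31% to 2.37%.

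*Vegfa* (chromosome 17, 46016993 to 46032369, minus strand) encodes the angiogenic growth factor VEGF-A. It was at 9.18, 11.1 and 7.57 TPM in dCas9-KRAB and at 221.5, 151.2 and 4.85 TPM in dCas9-KRAB-En5. Replicate 3 of dCas9-KRAB-En5 was below every control, and replicates 1 and 2 were far above. Its log2 fold change of 3.28 (SE 0.83) had an edgeR adjusted p of 0.0212, with a range over the alternatives from 1.2e-06 to 0.179. DESeq2 called it at 3.18 (adjusted p = 0.000207), and so did the edgeR fit without replicate 3, at 3.74 (adjusted p = 8.2e-05). Of the 9 other VEGF ligands and receptors, 7 were tested, 1 rose and none fell, where 1.52% and 4.67% of all tested genes did. Their median log2 fold change was -0.78, beside 0.08 over all genes tested. The gene that rose was *Nrp2*, a coreceptor, at 4.46, 7.86 and 3.54 TPM in dCas9-KRAB and 68.4, 110.2 and 10.5 TPM in dCas9-KRAB-En5 (log2 fold change 3.15, SE 0.60, edgeR adjusted p = 0.00578). This call was lost when any 1 dCas9-KRAB library (adjusted p up to 0.0514) or dCas9-KRAB-En5 replicate 2 (0.0112) was left out, with total counts and with limma. *Nrp1*, also a coreceptor, went the other way, at 0.362, 0.625 and 0.315 TPM in dCas9-KRAB and 0.0531, 0.115 and 0.0402 TPM in dCas9-KRAB-En5. Its log2 fold change of -2.85 (SE 0.73) did not pass (edgeR adjusted p = 0.0212). DESeq2 called it lower (adjusted p = 0.000325), and so did edgeR without replicate 3 (adjusted p = 0.00513), as for 8.66% and 14% of all genes tested. *Kdr*, the main signalling receptor of VEGF-A, was at or near 0 in all 6 libraries.

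*Bnip3* (chromosome 7, 138890836 to 138909519, minus strand) encodes a mitochondrial outer membrane protein that recruits mitochondria for mitophagy. It was at 15.4, 13.6 and 14.9 TPM in dCas9-KRAB and at 91.3, 97.0 and 9.72 TPM in dCas9-KRAB-En5. Replicate 3 was the lowest of all 6 libraries in TPM, but on TMM-normalized CPM it lay among the controls, at 21.7 against 16.8 to 22.7 CPM. At 1.71 (SE 0.55), its log2 fold change did not pass (edgeR adjusted p = 0.0521, 0.00128 to 0.218 over the alternatives) and was 2.05 without replicate 3 (edgeR adjusted p = 0.00128). Other annotated genes share 47.2% of its 50-base transcript words, and Gm45507 overlaps its exons on the opposite strand, so its level is uncertain. None of 8 other mitophagy genes was called by edgeR or DESeq2 on all 6 libraries, and 1 had an unadjusted p under 0.05 in edgeR. Without dCas9-KRAB-En5 replicate 3, edgeR called 1 higher, *Bcl2* (log2 fold change 2.30, adjusted p = 0.00634), beside 11.7% of all genes tested. Of the 8 genes, the 3 with the highest levels were the autophagy receptor *Sqstm1*, the kinase *Pink1* and the autophagosome protein *Map1lc3b*. Their log2 fold changes were -0.40, -0.39 and -0.70.

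*Ndrg1* (chromosome 15, 66929318 to 66969640, minus strand) encodes a stress-responsive cytoplasmic protein and is a well known marker of hypoxia. It was at 22.0, 46.7 and 35.4 TPM in dCas9-KRAB and at 418, 693 and 114.8 TPM in dCas9-KRAB-En5. It was the one gene of the 10 that was higher in all 3 dCas9-KRAB-En5 libraries in TPM, as were 7.76% of all tested genes. It rose by 3.19 on the log2 scale (SE 0.55, edgeR adjusted p = 0.0033), a level 9.12-fold higher. When any 1 dCas9-KRAB library was left out, the size stayed between 2.90 and 3.34 and the call was lost, with adjusted p of 0.0323, 0.0247 and 0.0305 without replicates 1, 2 and 3. Within the NDRG family *Ndrg1* held 29.6%, 42.4% and 40.4% of the summed TPM in dCas9-KRAB and 67.6%, 70.3% and 62.8% in dCas9-KRAB-En5, without overlap. *Ndrg2*, *Ndrg3* and *Ndrg4* were not called by edgeR on all 6 libraries (log2 fold changes 1.495, 0.99 and 1.19, all 3 with an unadjusted p under 0.05). *Ndrg2* was called higher by DESeq2 and by edgeR without dCas9-KRAB-En5 replicate 3, as were 5.88% and 11.7% of all genes tested. On the opposite strand Gm17035 and Gm2895 overlap 556 exonic bases of *Ndrg1*.

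*Pdk1* (chromosome 2, 71873224 to 71903858, plus strand) encodes a kinase that shuts pyruvate out of the mitochondrion by inhibiting pyruvate dehydrogenase. It was at 5.12, 4.14 and 4.27 TPM in dCas9-KRAB and at 9.61, 14.0 and 1.06 TPM in dCas9-KRAB-En5. The group of dCas9-KRAB-En5 held both the highest and the lowest values. Its log2 fold change of 0.38 (SE 0.56, edgeR adjusted p = 0.673) was the smallest of the 10 and was not called under any alternative. None of 11 further genes of pyruvate entry was called on all 6 libraries by edgeR (10 tested, 3 with an unadjusted p under 0.05) or by DESeq2. Without dCas9-KRAB-En5 replicate 3, edgeR called 2 of them higher and 1 lower, beside 11.7% and 14% of all genes tested. *Pdhb*, *Pdha1* and *Pdk3*, those with the highest levels, had log2 fold changes of -0.81, 0.34 and 0.21, and *Pdk4* was at no more than 0.243 TPM in any library.

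*Slc2a1* (chromosome 4, 119108711 to 119137983, plus strand) was at 13.9, 64.1 and 52.0 TPM in dCas9-KRAB and at 425, 601 and 63.6 TPM in dCas9-KRAB-En5. Replicate 3 of dCas9-KRAB-En5 was level with the highest control in TPM. On TMM-normalized CPM it stood above it, at 219.6 against 122.9 CPM. Gm12868 overlaps 105 exonic bases of *Slc2a1* on the opposite strand. The log2 fold change of 2.65 (SE 0.67) missed the cutoff (edgeR adjusted p = 0.0207, 0.000292 to 0.0818 over the alternatives). Blocked on replicate number it was 2.69 and passed (edgeR adjusted p = 0.00888), and without replicate 3 it was 2.96 and passed (adjusted p = 0.00171).

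*Slc2a3* (chromosome 6, 122727809 to 122801640, minus strand) encodes GLUT3, a high-affinity transporter of neurons and white blood cells. It was at 0.727, 1.97 and 1.504 TPM in dCas9-KRAB and at 13.4, 19.5 and 1.39 TPM in dCas9-KRAB-En5. Replicates 1 and 2 were above the controls, replicate 3 lay among them in TPM and above them in TMM-normalized CPM, at 9.95 against at most 7.81 CPM. The log2 fold change of 2.58 (SE 0.64, edgeR adjusted p = 0.0191) was called by DESeq2, at 2.48 (adjusted p = 0.000871), and without replicate 3, at 2.94 (edgeR, adjusted p = 0.000642), within a range of 9.9e-05 to 0.157 over the alternatives. The ratio of *Slc2a3* to *Slc2a1* within a library, in log2 of TPM + 0.1, was -4.69 ± 0.52 in dCas9-KRAB against -5.11 ± 0.26 in dCas9-KRAB-En5 (SD, n = 3), a difference of -0.42 (two-sided exact permutation p = 0.5, where 0.1 is the smallest possible).

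*Slc2a4* (chromosome 11, 69942539 to 69948188, minus strand) was barely expressed in either group. It had 51, 141 and 113 counts in dCas9-KRAB and 4, 14 and 0 in dCas9-KRAB-En5, or 0.540, 1.08 and 0.726 TPM against 0.0543, 0.237 and 0 TPM. The 0 counts of replicate 3 allow a level of up to 0.0942 CPM, the value of 3 counts, which covers counting error only. The groups did not overlap, with dCas9-KRAB-En5 lower, a pattern shared by 19.7% of all tested genes. The log2 fold change of -3.49 (SE 1.06) was not past the cutoff in edgeR's quasi-likelihood test (adjusted p = 0.0433, 0.00127 to 0.135 over the alternatives) and was called by DESeq2, at -3.60 (adjusted p = 0.00127). In log2 of TMM-normalized CPM + 0.5, the genes of the pathway lists closest to *Slc2a4* over the 6 libraries were *Nrp1*, *Ldhb* and *Tpi1*. Their mean absolute differences were 0.229, 0.406 and 0.420 log2 units. Before the addition of 0.5, *Slc2a4* was at 1.22 to 2.06 CPM in dCas9-KRAB and at 0 to 0.324 CPM in dCas9-KRAB-En5. At such levels the added 0.5 shrinks its change, so this closeness depends on it and does not show a shared fold change.

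The balance of the muscle transporter against the basal one moved with all libraries on their own side. In log2 of TPM + 0.1, the ratio of *Slc2a4* to *Slc2a1* was -4.45, -5.76 and -5.98 in dCas9-KRAB and -11.43, -10.80 and -9.31 in dCas9-KRAB-En5. The means of -5.40 ± 0.83 and -10.51 ± 1.09 (SD, n = 3) differed by -5.12, and the groups did not overlap (two-sided exact permutation p = 0.1, which is the smallest that 3 against 3 libraries allow). With a pseudocount of 1 TPM the difference was -3.47, since *Slc2a4* lies below that level in most libraries. Replicate 3 of dCas9-KRAB-En5 had no *Slc2a4* counts, so its ratio was set by the pseudocount and its *Slc2a1* level. With CPM in place of TPM the difference was -5.69.

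The transporter mRNA pool as a whole was not led by any of the 3 genes in dCas9-KRAB. *Slc2a6*, which encodes GLUT6, a transporter of lysosomal membranes known from macrophages, held 76.0%, 79.4% and 78.8% of the summed TPM of the 12 transporter genes there and 7.72%, 8.69% and 24.8% in dCas9-KRAB-En5. The share of *Slc2a1* was 11.5%, 13.7% and 13.8% in dCas9-KRAB and 83.4%, 82.2% and 50.6% in dCas9-KRAB-En5, so that the leading transporter mRNA changed in all 3 libraries, whereas *Slc2a4* never held more than 0.448%. The level of *Slc2a6* was 91.8, 371.7 and 296.8 TPM in dCas9-KRAB and 39.3, 63.5 and 31.2 TPM in dCas9-KRAB-En5. Its log2 fold change of -2.64 (SE 0.57) just missed the cutoff (edgeR adjusted p = 0.0103) and passed when blocked on replicate number (edgeR adjusted p = 0.00234). *Slc2a8* and *Slc2a9*, the other transporters tested, were not called (log2 fold changes 0.38 and 1.22). Of the 9 other transporter genes edgeR called none on all 6 libraries, with 2 at an unadjusted p under 0.05. *Slc2a6* was called lower by DESeq2 and by edgeR without dCas9-KRAB-En5 replicate 3, as were 8.66% and 14% of all genes tested.

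Genes that govern *Slc2a4* and its traffic were examined next. Of 6 transcription regulators, 5 were tested and 1 fell, where 4.67% of all tested genes did. It was *Myod1*, the myogenic master factor (log2 fold change -11.14, SE 0.86, edgeR adjusted p = 1.8e-05). The MEF2 genes, whose products bind the *Slc2a4* promoter, were not called with all 6 libraries (*Mef2a* 0.99, *Mef2c* 1.66, *Mef2d* 1.02). Without dCas9-KRAB-En5 replicate 3, 1 of the regulators was called higher and 2 lower, beside 11.7% and 14% of all genes tested. None of 13 genes of insulin signalling and GLUT4 vesicle traffic was called by edgeR on all 6 libraries, and 6 had an unadjusted p under 0.05. The block called 2 higher (*Lnpep* and *Pik3r1*), beside 3.94% of all genes tested, and DESeq2 called 3 higher, beside 5.88%. Without dCas9-KRAB-En5 replicate 3, edgeR called 4 higher and 1 lower, beside 11.7% and 14%. Of the 13 genes, *Akt2*, *Stx4a* and *Rab10* had the highest levels, with log2 fold changes of -0.66, 0.14 and 0.45.

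*Hk2* (chromosome 6, 82725025 to 82774454, minus strand) encodes the insulin-responsive hexokinase of muscle, which traps glucose in the cell. It was at 1.93, 9.59 and 3.97 TPM in dCas9-KRAB and at 27.6, 53.3 and 1.40 TPM in dCas9-KRAB-En5. Replicate 3 gave the lowest TPM of the 6, but on TMM-normalized CPM it lay among the controls, at 8.22 against 7.50 to 31.3 CPM. At 1.94 (SE 0.81), its log2 fold change did not pass (edgeR adjusted p = 0.118, 0.00423 to 0.405 over the alternatives) and was 2.38 without replicate 3 (edgeR adjusted p = 0.00606). *Hk1*, the hexokinase of most tissues, was more abundant in every library, at 10.3, 43.5 and 24.7 TPM in dCas9-KRAB and 113.1, 202.3 and 25.3 TPM in dCas9-KRAB-En5 (log2 fold change 1.74, SE 0.60, edgeR adjusted p = 0.0682; 1.99 and 0.00842 without replicate 3). The log2 ratio of *Hk2* to *Hk1* was -2.38 ± 0.22 in dCas9-KRAB against -2.68 ± 1.22 in dCas9-KRAB-En5 (SD, n = 3), a difference of -0.30 (two-sided exact permutation p = 1.0). It was 0.40 without dCas9-KRAB-En5 replicate 3, so the ratio had no settled direction.

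A further 29 genes known as HIF targets were all tested, and 4 rose and 1 fell in dCas9-KRAB-En5, where 1.52% and 4.67% of all tested genes did. Their median log2 fold change was 1.63, beside 0.08 over all genes tested, and 22 of 29 were above 0, beside 7522 of all 14378. The list was chosen with earlier results of these data known, so this contrast is descriptive. The genes that rose were *Adm*, the vasodilator adrenomedullin, *Pfkfb3*, which makes the allosteric activator of phosphofructokinase, *Car12*, a carbonic anhydrase, and *Cxcr4*, a chemokine receptor. *Adm* went from 0.410, 1.07 and 0.524 TPM to 42.2, 145.7 and 1.21 TPM (log2 fold change 6.005, SE 1.11, edgeR adjusted p = 0.00486). *Pfkfb3* went from 1.70, 3.06 and 2.40 TPM to 92.7, 131.5 and 6.36 TPM (log2 fold change 4.52, SE 0.74, edgeR adjusted p = 0.00243). Both were higher in all 3 dCas9-KRAB-En5 libraries, as were 7.76% of all tested genes, and by less in replicate 3. *Car12* (log2 fold change 3.94, edgeR adjusted p = 0.00622) and *Cxcr4* (3.79, edgeR adjusted p = 0.00328) were also higher in all 3. As for *Ndrg1*, the call of each of the 4 was lost when any 1 dCas9-KRAB library was left out (adjusted p from 0.0130 for *Pfkfb3* to 0.0663 for *Adm*), and limma did not call these 4 either. *Adm* and *Car12* were also not called with total counts, and *Car12* not without dCas9-KRAB-En5 replicate 2 (0.0107). *Angptl4*, an inhibitor of lipoprotein lipase that PPAR factors also induce, fell from 15.5, 44.1 and 30.0 TPM to 2.88, 3.23 and 2.34 TPM (log2 fold change -3.47, SE 0.52, edgeR adjusted p = 0.00131), and like *Egln3* it was below every control in all 3 dCas9-KRAB-En5 libraries and was called in every alternative.

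**Figure D4:**
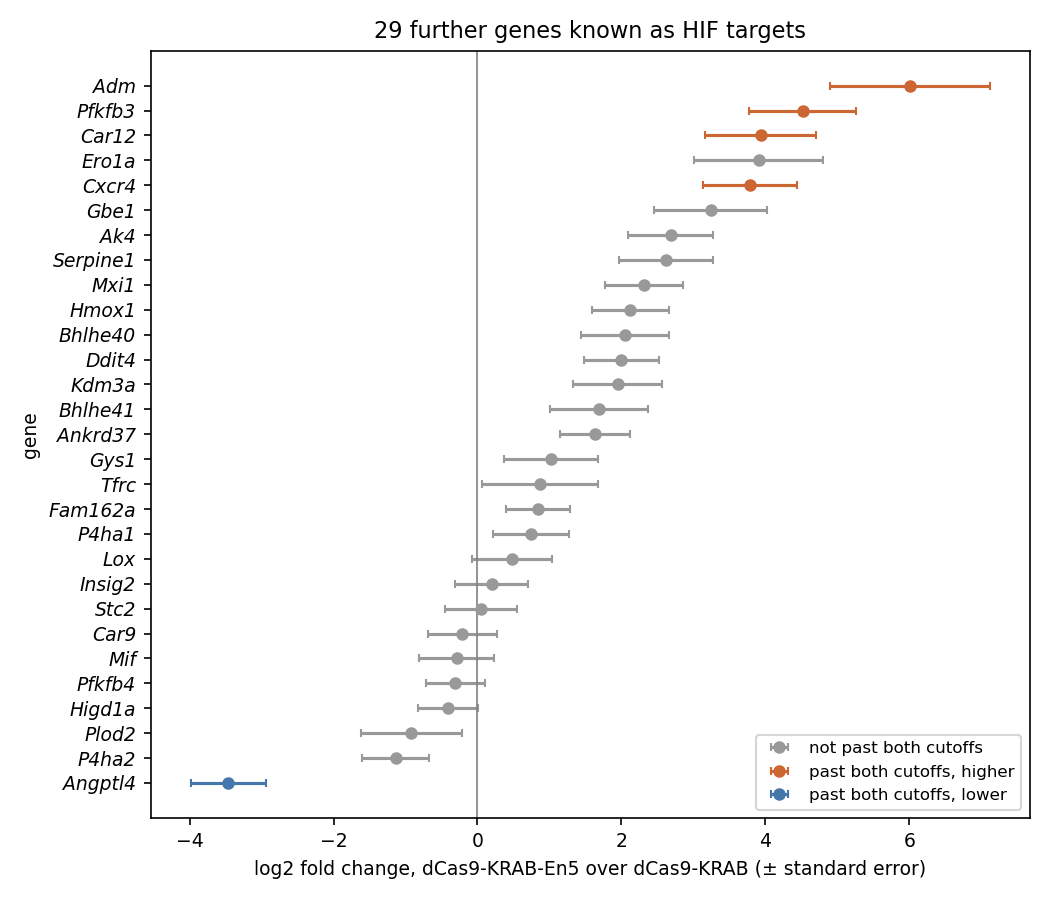
Log2 fold change of 29 further HIF targets, with the standard error of the edgeR fit (dCas9-KRAB-En5 over dCas9-KRAB). The 4 genes in orange rose and *Angptl4*, in blue, fell; 22 of the 29 lie above 0.

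The 3 dCas9-KRAB-En5 libraries did not share this pattern in full. Against the mean of the dCas9-KRAB libraries, the median difference of the 29 genes in log2 of TPM + 0.1 was 2.14 in replicate 1, 2.64 in replicate 2 and -0.56 in replicate 3, where over all genes tested it was 0.42, 0.57 and -0.79. The number above the highest dCas9-KRAB value was 22, 24 and 6 of 29, or 75.9%, 82.8% and 20.7%, against 50.2%, 54.0% and 11.2% of all genes tested. For the 10 genes the medians were 2.78, 3.03 and -0.75. Blocked on replicate number, 7 of the 29 were called higher and 1 lower, beside 3.94% and 6.79% of all genes. With DESeq2 the numbers were 12 and 1, beside 5.88% and 8.66%, and without dCas9-KRAB-En5 replicate 3 they were 15 and 2, beside 11.7% and 14%.

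**Figure D5:**
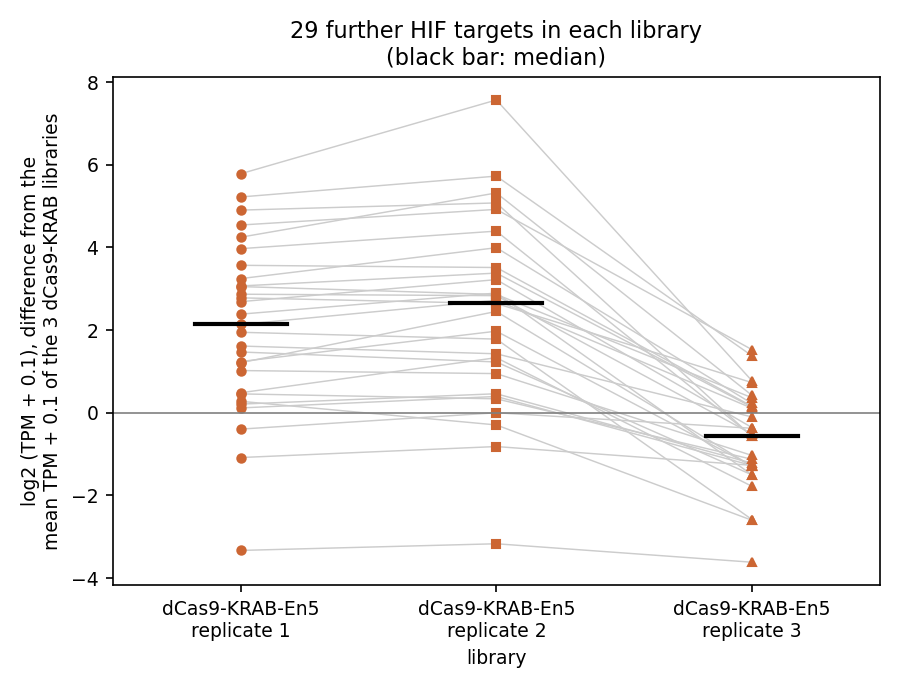
Difference of each of 29 HIF targets in each dCas9-KRAB-En5 library from the mean of the 3 dCas9-KRAB libraries, in log2 of TPM + 0.1, with grey lines joining a gene and black bars at the medians (2.14, 2.64 and -0.56). Replicates 1 and 2 lie mostly above 0 and replicate 3 mostly below.

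The genes of glycolysis, listed together with monocarboxylate transporter genes, did not move together. Of 23 listed, 21 were tested, 1 rose and 2 fell, where 1.52% and 4.67% of all tested genes did. Their median log2 fold change was 0.25, beside 0.08 over all genes tested. Without dCas9-KRAB-En5 replicate 3, 4 were called higher and 3 lower, beside 11.7% and 14% of all genes tested. The enolase genes diverged. *Eno2* went from 8.50, 17.8 and 14.7 TPM to 121.2, 171.1 and 26.8 TPM (log2 fold change 2.58, SE 0.52, edgeR adjusted p = 0.00737), while *Eno3*, the muscle isoform, went from 660, 738 and 645 TPM to 48.0, 48.8 and 48.1 TPM (-3.83, SE 0.55, edgeR adjusted p = 0.000991). *Pgam2*, the muscle phosphoglycerate mutase, also fell, from 44.0, 59.1 and 50.0 TPM to 4.61, 8.57 and 0.572 TPM (-3.94, SE 0.64, edgeR adjusted p = 0.00219). The groups did not overlap for any of these 3 genes. Of all tested genes, 7.76% were higher and 19.7% lower without overlap in TPM. Blocked on replicate number, 3 genes were called lower, beside 6.79% of all genes tested. *Ldhb*, a lactate dehydrogenase typical of heart, joined *Eno3* and *Pgam2* at -6.07 (edgeR adjusted p = 0.0035), against -5.44 (adjusted p = 0.0103) without the block. It had 113, 108 and 162 counts in dCas9-KRAB and 6, 0 and 0 counts in dCas9-KRAB-En5. The call of *Eno2* was lost when any 1 library other than dCas9-KRAB-En5 replicate 3 was left out (adjusted p from 0.0131 to 0.0496), with total counts and with limma, that of *Eno3* without dCas9-KRAB replicate 1 (0.0133), and that of *Pgam2* without dCas9-KRAB replicate 1 (0.0178) or 2 (0.0104) or with total counts (0.0121).

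Of 5 genes of glucose sensing, 4 were tested, 2 rose and none fell, where 1.52% and 4.67% of all tested genes did. *Txnip*, which restrains glucose uptake and is induced by glucose through the MondoA and ChREBP factors, was at 153.9, 133.4 and 148.7 TPM in dCas9-KRAB and at 1862, 1599 and 497 TPM in dCas9-KRAB-En5 (log2 fold change 2.86, SE 0.50, edgeR adjusted p = 0.00373). Its relative *Arrdc4*, under the same factors, was at 0.119, 0.284 and 0.188 TPM and at 2.21, 2.13 and 1.31 TPM (3.12, SE 0.65, edgeR adjusted p = 0.00825). Both were above every control in dCas9-KRAB-En5 replicate 3 as well, as were 6 of the 29 HIF targets and 11.2% of all genes tested. Both calls were lost when any 1 dCas9-KRAB library was left out, at adjusted p up to 0.0509, and that of *Arrdc4* also without dCas9-KRAB-En5 replicate 1 (0.0234) or 2 (0.0221), with total counts (0.0141) and with limma. *Mlxip*, the gene of MondoA, was not called (log2 fold change 1.72, edgeR adjusted p = 0.0661).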

How the data were processed

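RNA of 6 C2C12 libraries was analysed. The authors aligned the paired reads with HISAT2 2.2.1 to GRCm38 (mm10), summarized them by gene with featureCounts, and deposited raw counts and TPM (counts per length, scaled to 1000000 per library) for each library. The annotation release and strand setting are not given in the sources used here, and where exons overlap on opposite strands reads may be shared. Genes not listed in a file were taken as 0 counts.

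Counts were normalized with TMM and tested with edgeR 4.0.16 in R 4.3.3 (filterByExpr with a minimum count of 10 and a minimum total count of 15, glmQLFit, glmQLFTest, Benjamini-Hochberg adjustment over 14378 genes), condition alone in the model. Calls required an adjusted p up to 0.01 together with a log2 fold change of 1 or more in size. The share of all tested genes with an unadjusted p under 0.05 was not counted, so such counts for the lists have no background. The edgeR fit was also run on simulated counts, drawn independently for each library. These hold neither the deviating gene levels of dCas9-KRAB-En5 replicate 3 nor shared shifts of same-numbered libraries, so they cannot speak to either. Alternatives were DESeq2 1.42.0, limma 3.58.1 with 1 or 0.1 added to the TPM before taking log2, other size factors and filters, and leaving out each library. Ratios used TPM + 0.1 and exact permutation tests.

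Replicate numbers come from the sample labels. Same-numbered libraries of both groups shifted together around the means of their groups (correlations across genes of 0.262, 0.214 and 0.290 for numbers 1 to 3, against -0.341 to -0.0508 for differently numbered ones), so the number was also fitted as a block.

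The depth was 31831093 to 73988425 counts per library, where 3 counts are 0.0405 to 0.0942 CPM. Coordinates are those of GENCODE for GRCm38, and promoter windows those of RefSeq. The 10 genes, the pathway lists and the markers were chosen with earlier results of these data known. Named were the 10 genes, *Myog*, *Hk1*, *Egln1*, *Epas1* and *Pdk4*, the called genes of each list or else the 3 with the highest mean TPM, and the 3 genes nearest in pattern to *Hif1a* and to *Slc2a4*. *Slc2a6* also falls under that rule. *Egln2*, *Arnt*, *Elob*, *Rbx1*, *Hk3*, *Kdr*, *Lnpep*, *Pik3r1*, *Mef2a*, *Mef2c*, *Mef2d* and *Mlxip* were added after their values were seen. The same holds for the macrophage markers named and the adipocyte markers other than *Fabp4*.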

Additional observations from a re-analysis of the deposited data

How the results depend on the processing

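Over all genes, 890 were called (219 higher and 671 lower, 24.6% higher) with TMM. The number was 586 with total counts (70 higher and 516 lower, 11.9% higher), 2198 without a low-count filter (45.7% higher), 544 under a minimum of 10 counts in each of the libraries, 2390 with DESeq2, 514 with limma on log2(TPM + 1), 1543 with the replicate number as a block, and 222 to 3921 with 1 library left out. Of the 10 genes, 2 were called, against 6 without the filter, 6 with DESeq2, 3 with the block (*Slc2a1* added at 2.69, no other call among the 10 changed) and 1 to 8 with 1 library left out, 8 being the number without dCas9-KRAB-En5 replicate 3. Of 149 alternative fits of the 10 genes, 130 kept the direction and the side of the cutoffs, 15 newly passed, 3 no longer passed (*Ndrg1* without each dCas9-KRAB library) and 1 reversed (*Pdk1*, -0.031 without dCas9-KRAB-En5 replicate 2, in a range of -0.031 to 0.74 with 1 library left out). *Slc2a4* was not tested under the filter of 10 counts in every library. With a pseudocount of 1 TPM, the difference in the log2 ratio of *Slc2a4* to *Slc2a1* was -3.47 and that of *Slc2a3* to *Slc2a1* -0.85. With 1 library left out, the ranges were -5.72 to -4.64, -0.59 to -0.12 and, for *Hk2* to *Hk1*, -0.68 to 0.40. Apart from the alternatives' own construction, the cause of these shifts was not tested. Precision is limited by 3 libraries a group and, for *Slc2a4*, by counts of 0 to 14 in dCas9-KRAB-En5.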
